A study of Mus musculus with 2 samples.

Results

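The Vmn2r genes encode the type 2 vomeronasal receptors of the mouse. The set described here holds the 119 protein-coding genes named Vmn2r plus a number on chromosomes 1 to 19 in the GENCODE vM21 annotation of mm10, out of 20807 protein-coding genes on those chromosomes. A further gene of that name on X was not used, which makes 120 in all. The genes lie on 7 chromosomes, with 51 on chromosome 7, 31 on chromosome 17, 11 on chromosome 5, 9 on chromosome 6, 8 on chromosome 10, 7 on chromosome 3 and 2 on chromosome 14. Joining genes less than 500 kb apart gave 18 clusters covering 12.5 Mb, of which 4 hold a single gene, and 115 pseudogenes named Vmn2r-ps are annotated on the same chromosomes. The largest cluster by gene count is Vmn2r90 to Vmn2r110 on chromosome 17 with 22 genes. The smallest are the single genes Vmn2r18, Vmn2r28, Vmn2r118 and Vmn2r120.

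Type 2 vomeronasal receptors are G protein-coupled receptors with a long extracellular domain, carried by sensory neurons of the basal layer of the vomeronasal organ, where they detect peptide and protein cues. The family grew by repeated local duplication, so neighbouring members and the sequence between them are often near copies. Midbrain is not a tissue in which these receptors are known for a role. CTCF, a protein with many zinc fingers, recognises a long DNA motif that has a direction, and with the cohesin ring it holds chromatin loops and domain borders in place. In olfactory sensory neurons, the receptor genes that a neuron has not chosen are known to lie in repressive chromatin. Such chromatin was not measured here.

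CTCF binding was measured by chromatin immunoprecipitation and sequencing (ChIP-seq) in midbrain from B6NCrl mice on postnatal day 0, with sex not collected. There was 1 group of 2 replicates and no other genotype or treatment, so no comparison between conditions could be made. Both replicates carry 1 tissue and donor record, and their spread may therefore be technical only. The main list, called optimal, holds 68603 peaks thresholded by the irreproducible discovery rate (IDR), of which 66972 lie on chromosomes 1 to 19. Each peak has a summit, its highest point, and a signal value whose scale is not stated. The sources used here do not give the read depth or read length. A gene without a listed peak is therefore one where none was listed, and it is not shown to lack CTCF.

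No Vmn2r gene had an optimal peak summit within 1 kb of its start. The count was 0 of 119, which allows a share of up to 2.52%, while 36.0% of all protein-coding genes on chromosomes 1 to 19 had such a peak. Floors and intervals cover counting error only. The count was also 0 when any annotated transcript start was used in place of the gene's 5' end, and 0 for the strongest peaks of either replicate alone. Within 5 kb, 2 members had a peak, against 54.4% of all genes. These were Vmn2r7, whose nearest summit lay 2290 bp from the start, and Vmn2r81, at 4963 bp. The median distance from a Vmn2r start to the nearest summit was 189879 bp, with an upper quartile of 522394 bp, against 3620 bp for all genes. The shortest distance was that of Vmn2r7 and the longest, 2542 kb, that of Vmn2r47 on chromosome 7, which is also the longest of any protein-coding gene on these chromosomes.

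**Figure D1:**
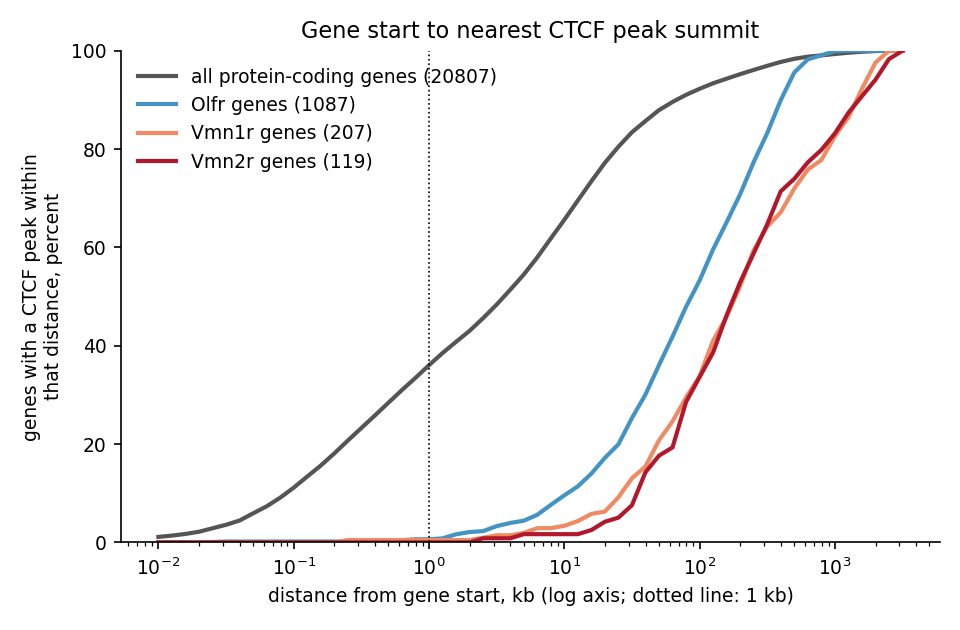
Share of genes (y axis, percent) with a CTCF peak summit within a given distance of the gene start (x axis, kb, log scale) for Vmn2r, Vmn1r, Olfr and all protein-coding genes. The Vmn2r line stays at 0 up to 1 kb, where all genes reach 36.0%, and its median lies at 189879 bp against 3620 bp.

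Weaker peaks at Vmn2r starts were few. In the longer list called on both replicates together, which was not thresholded in this way, 3 of 119 starts had a summit within 1 kb (2.52%, Wilson 95% interval 0.861 to 7.15%), against 66.7% of all genes. They belonged to Vmn2r1, 269 bp downstream of the start with a signal of 7.78, to Vmn2r56, 426 bp upstream with 7.58, and to Vmn2r77, 159 bp downstream with 7.95. These signals rank at the 22.2, 18.5 and 25.2 percentile of that list. The replicate 1 list held 4 such starts, against 66.2% of all genes: Vmn2r77 with a signal of 5.64, Vmn2r24 with 4.98, Vmn2r56 with 4.65 and Vmn2r89 with 4.59. The replicate 2 list held 1, that of Vmn2r1 with 4.70, against 65.2% of all genes. No Vmn2r start had a peak in both replicate lists. With 4 starts in one list and 1 in the other, little overlap could be seen. The share of all genes with a start peak in both lists is not given here.

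The CTCF motif was not matched at these starts either. A matrix 20 bp wide, trained on strong peaks of other chromosomes than the ones it was applied to, was matched on both strands at a per-position p of 1e-05. It had no match within 1 kb of any of the 119 starts, against 31% of all protein-coding genes. At the looser p of 1e-04, 29 members (24.4%) had a match, against 80.6% of all genes. The median GC content of the 2 kb around the starts was 34.8% for Vmn2r genes, with a range of 29.5 to 45.4%, and 51.4% for all genes. The part of base composition in the motif and peak counts was not tested.

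Many Vmn2r starts are near copies of one another, which bears on whether short reads can be placed there. Over the 200 bases around the start, 50 members had another member at 95% identity or more, and 14 matched another member without a difference. The median over members of the identity to the closest other member was 92%. One pair, Vmn2r34 and Vmn2r37, lies in 1 cluster on chromosome 7 and is shown because its 200 bases are the same at the same offset. The 30 bases before each start, from GRCm38.p6 (mm10), minus strand, in lower case throughout, are at chr7:7689514-7689543 and chr7:9223654-9223683.
Vmn2r34: caggagaaacctgaaaataaaatgaatcat
Vmn2r37: caggagaaacctgaaaataaaatgaatcat

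To put a number on this, each 50-base word within 1 kb of a start was looked up on both strands of the whole assembly. The median share of words found once was 88.7% for Vmn2r starts and 100% for all genes. It was 0 for 7 members and under 50% for 29. Of the 119 starts, 56 had at least 90% of their words found once, and none of these 56 had an optimal peak, which allows up to 5.36%. Among all protein-coding genes with starts that unique, 39.5% of 18362 had one. All 3 starts with a peak in the list of both replicates together are among the 56 (5.36%). In that list 72.8% of all protein-coding genes with starts that unique had one.

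Inside the genes peaks were rare as well. No optimal summit lay in the gene or within 1 kb of its start for 115 of 119 members, against 36.3% of all protein-coding genes. The exceptions were Vmn2r7 with 2 peaks and Vmn2r9, Vmn2r76 and Vmn2r81 with 1 each. Vmn2r7 spans 159.7 kb in this annotation, the longest of the members, whose median is 27.2 kb. Both of its peaks are intronic and also lie in the overlapping transcript Gm26939. The peaks of Vmn2r9 and Vmn2r76 lie in their 3' untranslated regions, and that of Vmn2r81 in an intron.

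The stronger Vmn2r7 peak, with its summit at chr3:64791108, had the highest signal of all peaks inside the clusters. Its signal was 410.0 in the optimal list, at the 94.8 percentile of optimal peaks, and 204.6 in the replicate 1 list and 205.8 in the replicate 2 list. The other, at chr3:64842475 and 2290 bp from the start, had 212.2, with 125.5 in replicate 1 and 86.0 in replicate 2. Both have a motif on the minus strand, and the sequences around these are shown because Vmn2r7 is the 1 member with more than 1 peak inside the gene (GRCm38.p6, minus strand, chr3:64791080-64791139 and chr3:64842434-64842493, the 20-base motif match in capitals).
Vmn2r7 intron, stronger peak: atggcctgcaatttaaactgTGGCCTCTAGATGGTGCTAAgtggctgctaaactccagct
Vmn2r7 intron, near the start: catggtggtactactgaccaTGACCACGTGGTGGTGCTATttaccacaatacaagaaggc

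The Vmn2r76 peak, at chr7:86211551, had a signal of 99.7, with 54.5 in replicate 1 and 42.7 in replicate 2. The Vmn2r9 peak, at chr5:108836328, had 84.7, with 51.4 and 30.96. The Vmn2r81 peak, at chr10:79252655, was weak at 27.4, with 20.4 in replicate 1 and 7.79 in replicate 2. It was the 1 of these 5 peaks missing from the conservative IDR list. Each replicate value comes from that replicate's own list, and the scaling between the lists is not known.

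Counted over whole clusters, 41 optimal summits lay in the 12.5 Mb, or 3.27 per Mb (exact Poisson 95% interval 2.35 to 4.44). The mean over chromosomes 1 to 19 was 27.2 per Mb, 8.31-fold higher, and single chromosomes ranged from 21.0 on chromosome 3 to 40.2 on chromosome 11. Each of the 18 clusters had fewer peaks per Mb than its own chromosome. The single-gene clusters, Vmn2r84 to Vmn2r87 and Vmn2r88 to Vmn2r89 are too short for their counts to show a difference. Their upper Poisson limits, 30.9 to 221 per Mb, lie above the values of their chromosomes. In 9 clusters with 24 genes and 1.16 Mb no optimal peak was listed. The list of both replicates together held 5 peaks there, where its mean over chromosomes 1 to 19 was 119.7 per Mb. Of the 124 windows of 100 kb that lie at least 50% inside a cluster, 101 had no summit (81.5%, Wilson 95% interval 73.7 to 87.3%), against 28.4% of the windows tiling chromosomes 1 to 19.

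**Figure D2:**
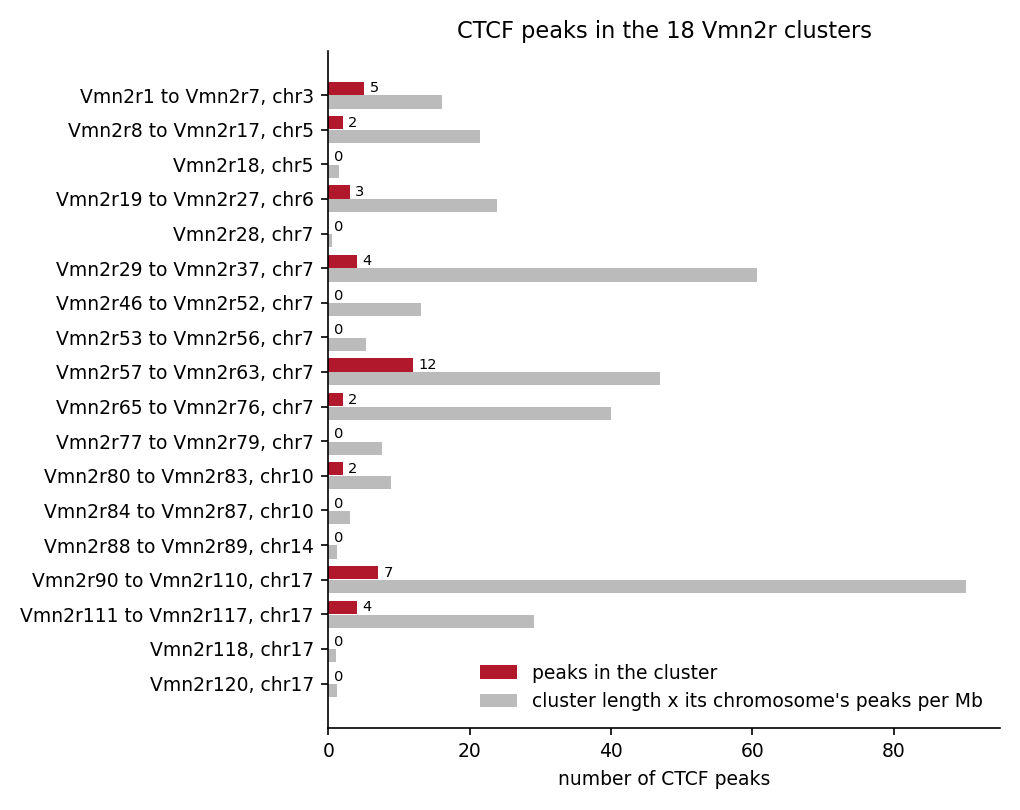
Number of CTCF peaks in each of the 18 Vmn2r clusters (red bars, number printed) and the number that the cluster's length would hold at the mean peaks per Mb of its chromosome (grey bars). Vmn2r57 to Vmn2r63 holds the most peaks, 12, where its grey bar stands at 46.9.

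Among the larger clusters, the highest density was in Vmn2r57 to Vmn2r63 on chromosome 7, with 12 peaks at 7.80 per Mb. That cluster also holds 13 other protein-coding genes, among them the zinc finger genes Zfp788, Zfp141, Zfp977, Zfp976 and Zfp975, and 10 of its 12 peaks lie within 1 kb of a transcript start of another gene. Vmn2r1 to Vmn2r7 on chromosome 3 followed with 5 peaks at 6.55 per Mb, and Vmn2r80 to Vmn2r83 on chromosome 10 with 2 peaks at 5.80 per Mb. Vmn2r111 to Vmn2r117 on chromosome 17 had 4 peaks at 4.28 per Mb, Vmn2r19 to Vmn2r27 on chromosome 6 had 3 at 3.25, and Vmn2r8 to Vmn2r17 on chromosome 5 had 2 at 3 per Mb. The lower end was held by Vmn2r90 to Vmn2r110 with 7 peaks at 2.42 per Mb, Vmn2r29 to Vmn2r37 with 4 at 2.01 and Vmn2r65 to Vmn2r76 with 2 at 1.53. No optimal peak lay in Vmn2r46 to Vmn2r52, Vmn2r53 to Vmn2r56 and Vmn2r77 to Vmn2r79 on chromosome 7, Vmn2r84 to Vmn2r87 on chromosome 10, Vmn2r88 to Vmn2r89 on chromosome 14 and the 4 single genes. The intervals of these small counts overlap widely. That of Vmn2r57 to Vmn2r63, for example, runs from 4.03 to 13.6 per Mb and that of Vmn2r80 to Vmn2r83 from 0.702 to 21.0.

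Many of the peaks that did occur lay at other genes. Of the 41 peaks, 17 lay within 1 kb of a transcript start (41.5%, Wilson 95% interval 27.8 to 56.6%), none of them of a Vmn2r gene, against 21.1% of all optimal peaks. Of these 17, 10 lie in Vmn2r57 to Vmn2r63, and some share a start. Of the rest, 13 were intergenic, 8 intronic and 3 exonic. With a joining distance of 250 kb, 18 peaks remained in 9.72 Mb, or 1.85 per Mb. All 4 peaks of Vmn2r29 to Vmn2r37 lie in its first 68.4 kb, at the starts of Gm45844 and Gm45631 and of Clcn4, a chloride and proton exchanger. All 7 peaks of Vmn2r90 to Vmn2r110 lie in its first 195.7 kb, a stretch that also holds Spaca6, a sperm protein needed for fertilization, the hyaluronan synthase Has1, and Fpr3, a formyl peptide receptor gene.

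**Figure D3:**
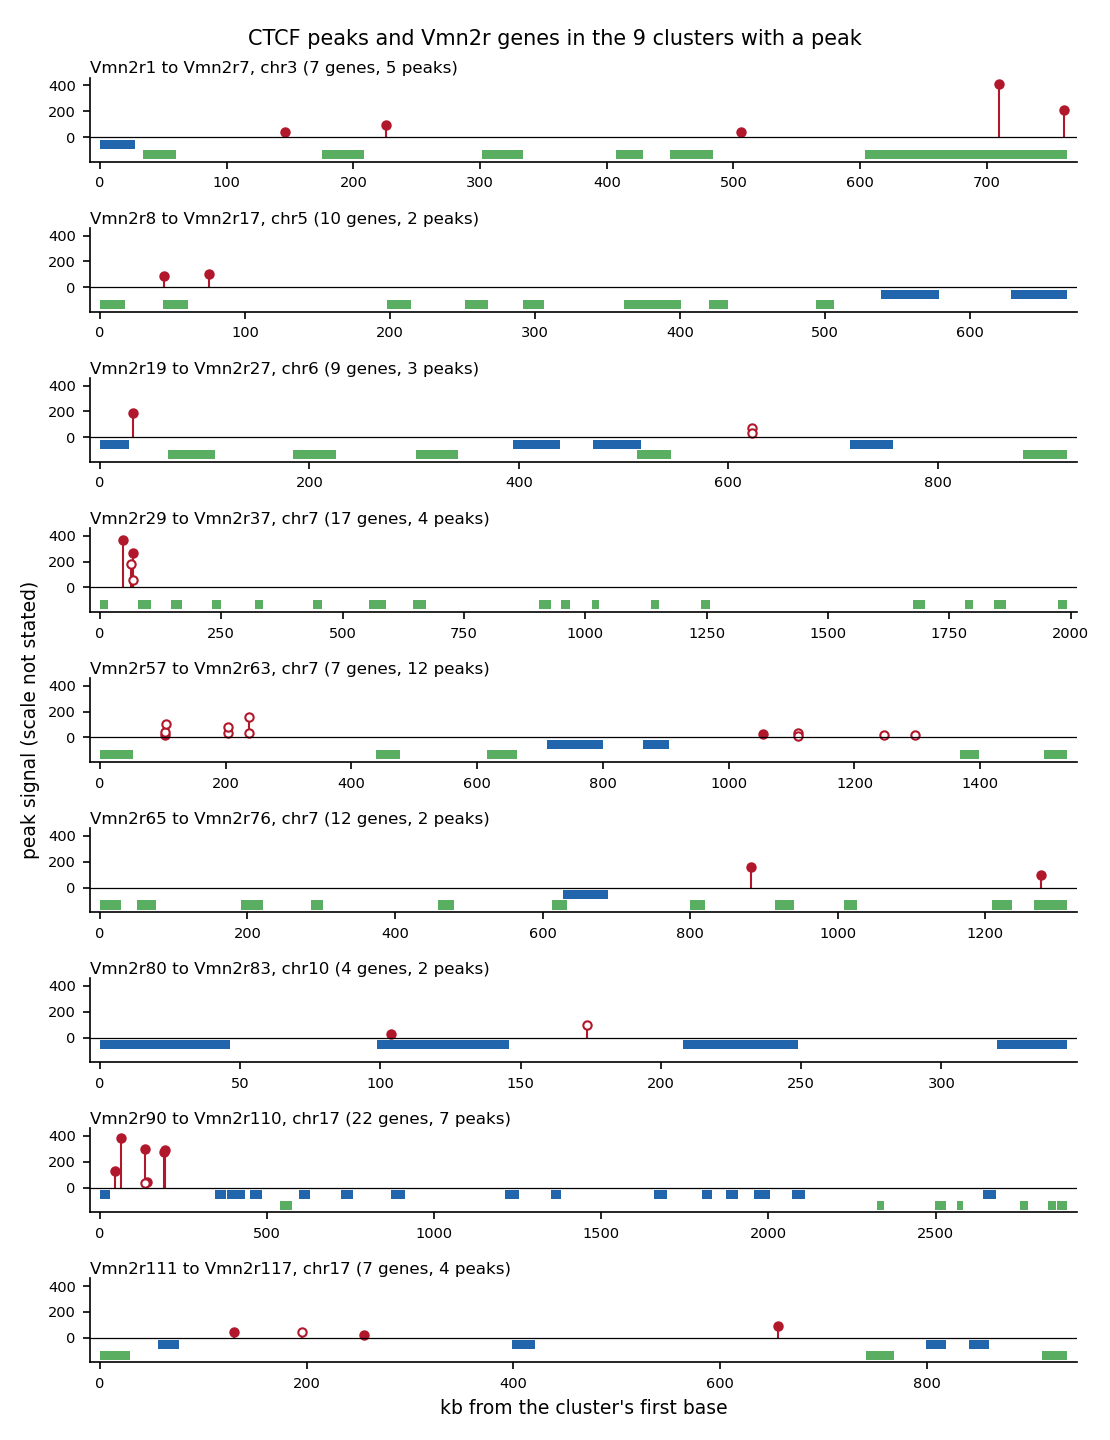
The 9 clusters with a peak, each drawn in kb from its first base (x axes differ). Red lines show the signal of each peak (filled circle: CTCF motif within 50 bp of the summit, open circle: none), and bars below the axis show Vmn2r genes on the plus strand (blue, upper row) and minus strand (green, lower row). The 7 peaks of Vmn2r90 to Vmn2r110 stand within its first 195.7 kb.

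The peak-free stretches that begin there are among the longest in the genome. Between chr7:7299740 and chr7:12478232 no optimal summit was listed over 5178 kb, the longest of 66953 gaps between neighbouring summits on chromosomes 1 to 19, whose median is 13.2 kb. It holds 23 Vmn2r genes, 19 Vmn1r genes and 54 protein-coding genes in all, and 0.966% of it is unsequenced. From chr17:17899418 to chr17:20945396 the stretch was 3046 kb, the 4th longest, with 21 Vmn2r genes among 34 protein-coding genes and no unsequenced base. The list of both replicates together held 12 peaks in the first stretch and 10 in the second, where its mean over chromosomes 1 to 19 was 119.7 per Mb. The second longest gap, 4125 kb on chromosome 7, holds no Vmn2r gene but 65 Vmn1r genes.

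The clusters in these 2 stretches differ in the share of sequence found once. In Vmn2r29 to Vmn2r37, 13.4% of the 50-base words occur once in the assembly, and in Vmn2r46 to Vmn2r52 it was 28.1%. In Vmn2r90 to Vmn2r110, in the chromosome 17 stretch, the share was 85.9%. The sequence between the clusters was not measured. Over all clusters it was 63.97%, against 89.4% in the middle of windows tiling chromosomes 1 to 19. Per Mb of words found once, the clusters held 5.12 peaks (3.67 to 6.94), against 30.4 for chromosomes 1 to 19, which is 5.95-fold lower. With words of 36 and 100 bases the difference was 5.42-fold and 6.71-fold. This measure was chosen after the data were seen, and how reads with several possible places were treated is not known. The 5 clusters in which at least 80% of words occur once held 9 peaks in 4.55 Mb, or 1.98 per Mb (0.905 to 3.76). The 13 others held 32 peaks at 4.01 per Mb. Of the 9 peaks, 7 lie in Vmn2r90 to Vmn2r110 and 2 in Vmn2r65 to Vmn2r76. Of the 32, 12 lie in Vmn2r57 to Vmn2r63. The difference was not tested.

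Motif matches were present in the clusters, and fewer of them carried a peak. The clusters held 650 matches, 51.9 per Mb, against 83.7 per Mb on chromosomes 1 to 19, with a GC content of 38.2% against 41.9%. A summit lay within 50 bp of 26 of the 650 (4%, Wilson 95% interval 2.74 to 5.80%), against 21.9% of all matches. Among the 181 cluster matches whose surrounding words were at least 90% unique, 22 had a summit (12.2%, 8.17 to 17.7%), against 28.8% of such matches on chromosomes 1 to 19. Among the rest, the shares were 0.853% in clusters and 2.61% overall. Only 27.8% of the cluster matches were that unique, against 73.4% overall.

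The chromosome 5 cluster holds copies of 1 site with and without a peak. A 20-base motif match in the 3' untranslated region of Vmn2r9 recurs along Vmn2r8 to Vmn2r17, and its 7 copies are shown because 3 carry an optimal peak and 4 do not. The copies are 80% or more identical to the Vmn2r9 site over 60 bases, and 6 of the 7 hold the same 20 bases. The Vmn2r15 copy, which has no optimal peak, differs within these 20 bases. All are on the plus strand of GRCm38.p6, in the order of the chromosome, with the motif match in capitals and 5 bases to each side, and are named by the nearest member. Their coordinates are chr5:108790571-108790600, chr5:108836315-108836344, chr5:108866945-108866974, chr5:109032759-109032788, chr5:109072212-109072241, chr5:109139715-109139744 and chr5:109273134-109273163.
Vmn2r8 end, peak: ctgttTGGCCAGCAGATGTCAGAAGggaag
Vmn2r9, 3' untranslated region, peak: ctgttTGGCCAGCAGATGTCAGAAGggaaa
Vmn2r9 upstream, peak: ctgtgTGGCCAGCAGATGTCAGAAGagagg
Vmn2r10, no optimal peak: atgttTGGCCAGCAGATGTCAGAAGggaag
Vmn2r11, no optimal peak: ctgtgTGGCCAGCAGATGTCAGAAGggagg
Vmn2r12, no optimal peak: ctctgTGGCCAGCAGATGTCAGAAGggaag
Vmn2r15, no optimal peak: ctgtgTGGCCAGCAGAAGTCAAAAGgaaac

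The first site lies 1.26 kb outside the cluster in an intron of Tmed11, a gene of the family that sorts cargo in the early secretory pathway, and had a signal of 69.4 (36.5 in replicate 1 and 30.7 in replicate 2). The Vmn2r9 site had 84.7, as given above, and the site 14.3 kb from the Vmn2r9 start, in the unclassified transcripts Gm10417 and Gm20629, had 100.01 (49.0 and 49.9). The Vmn2r10 copy, 93.3% identical to the Vmn2r9 site, had only a weak peak of 20.3 in the list of both replicates together (13.1 and 8.09). At the Vmn2r11, Vmn2r12 and Vmn2r15 copies no list held a summit within 50 bp. The Vmn2r11 copy is 95% identical to the site 14.3 kb from the Vmn2r9 start. Of the words around the motif matches of these copies 92.1 to 100% occur once in the assembly. The stretch used for this is narrower than that used around peak summits. Whether this share bears on the presence of a peak was not tested.

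Further peaks in the clusters have copies of this kind. A site 62305 bp from the Vmn2r3 start on chromosome 3, with a signal of 36.1 (19.2 in replicate 1 and 17.1 in replicate 2), has 5 copies at 86.7 to 90% identity near Vmn2r4, Vmn2r5 and Vmn2r6. None of these 5 had an optimal peak, and the words around them were 71.3 to 97.03% unique. Another site, 17286 bp from the Vmn2r3 start, did carry an optimal peak, with a signal of 93.7 (51.1 and 43.7). Read on the minus strand, its motif match and the bases before it closely resemble those of the copies. The bases after it differ, and it was not counted as a copy at the identity used here. The copy near Vmn2r4 had a signal of 11.8 in the list of both replicates together and 7.52 in replicate 1, with no peak in replicate 2. A site 57972 bp from the Vmn2r73 start on chromosome 7, with a signal of 161.8 (94.2 and 68.4), has 3 copies on chromosomes 6, 7 and 17 at 90 to 91.7% identity. An optimal summit lies 51 bp from the copy on chromosome 6, just beyond the 50 bp used here. The nearest optimal summits to the copies on chromosomes 7 and 17 lay 17462 and 847868 bp away. The chromosome 7 copy had a weak peak of 12.2 in the list of both replicates together, and a peak in each replicate list. The words around these 3 copies were 49.5 to 76.2% unique. The Vmn2r73 site and the copy near Vmn2r25 are shown to compare sites on different chromosomes (GRCm38.p6, plus strand, chr7:85818285-85818314 and chr6:123931154-123931183, motif match in capitals).
Vmn2r73, peak: atgtgTCGCCACTAGATGGTGTTAAacctc
Vmn2r25, summit 51 bp away: atgtgCCGCCACTAGATGGTGCTAAacctc

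In 2 further pairs both copies carried a peak. On chromosome 17, the site 45.8 kb from Vmn2r90 had a signal of 129.7 (78.2 and 52.5) and the site 112.5 kb from Vmn2r114, in another cluster, had 89.3 (47.0 and 42.9), at 88.3% identity. On chromosome 7, the sites at the starts of Gm45844 and Clcn4 had 367.3 (187.5 and 180.2) and 268.1 (129.7 and 136.1), at 86.7% identity. The words around both chromosome 17 sites were 85.1% unique. Around the Gm45844 site they were 100% unique and around the Clcn4 site 45.5%. The chromosome 17 pair is shown as a duplicated site with a peak in both clusters (GRCm38.p6, minus strand, chr17:17749521-17749550 and chr17:23200027-23200056, motif match in capitals).
Vmn2r90: cgagcTGAACAGCAGAGGGAGACAAaggta
Vmn2r114: cgagcTGAACAGCAGAGGGAGACAGaggta

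The median signal of the 41 cluster peaks was 80.5 (95% interval from order statistics 38.2 to 103.5), with a range of 13.4 to 410.0 (at the 94.8 percentile of optimal peaks), against 76.2 for all peaks of chromosomes 1 to 19, and 21 of 41 lay above that value. Of the 41 summits, 24 had a motif within 50 bp (58.5%, Wilson 95% interval 43.4 to 72.2%), against 65.2% of all optimal peaks. Of these motifs, 11 were on the plus and 13 on the minus strand. The peaks with a motif had a median signal of 99.9 and those without 41.8, where all peaks had 115.7 and 46.3. The words around 27 of the 41 summits were at least 90% unique, while 96.0% of all peaks reached that share.

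After Vmn2r7, the strongest peak lay 62.9 kb downstream of the start of Vmn2r90, at chr17:17766690, with a signal of 381.6 (194.3 in replicate 1 and 187.8 in replicate 2). The Gm45844 site came next at 367.3. A transcript start of Spaca6 at chr17:17838218 had 299.4 (146.2 and 152.2), and a pair of sites in an intron of Fpr3 had 290.4 (165.7 and 123.4) and 274.8 (141.8 and 133.7). The 10 strongest also included Clcn4 with 268.1, the other Vmn2r7 site with 212.2, a site 31958 bp from the Vmn2r19 start with 185.8 (98.5 and 86.6), and a start of Gm45631 beside Clcn4 with 184.3 (103.7 and 81.9). Apart from the pair in Vmn2r7, none of these lies in a Vmn2r gene. The Vmn2r90 site and the Vmn2r19 site are shown as the strongest ones in the clusters that lie in no annotated gene and at no transcript start (GRCm38.p6, plus strand, chr17:17766659-17766718 and chr6:123340264-123340323, motif match in capitals).
Vmn2r90 downstream: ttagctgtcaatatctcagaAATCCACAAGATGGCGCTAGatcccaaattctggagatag
Vmn2r19 intergenic: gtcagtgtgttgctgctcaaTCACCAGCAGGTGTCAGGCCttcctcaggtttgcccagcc

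Most of these peaks were present in both replicates. All 41 were found within 100 bp in replicate 1 and 37 in replicate 2, where 97.8% of all optimal peaks were found in both. The 4 missing in replicate 2 all lie in Vmn2r57 to Vmn2r63, at the starts of AW146154, Zfp788, Zfp141 and Zfp976, with signals of 13.4 to 34.5 in the optimal list. The median log2 ratio of replicate 1 to replicate 2 was 0.18 (SD 0.51, range -0.55 to 2.21) over the 37 peaks and 0.30 (SD 0.46) over all peaks. The highest ratio was that of a peak 190771 bp from the Vmn2r61 start, with 17.7 in replicate 1 and 3.82 in replicate 2. In the conservative list 32 of the 41 were kept (78.0%), against 86.9% of all optimal peaks.

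**Figure D4:**
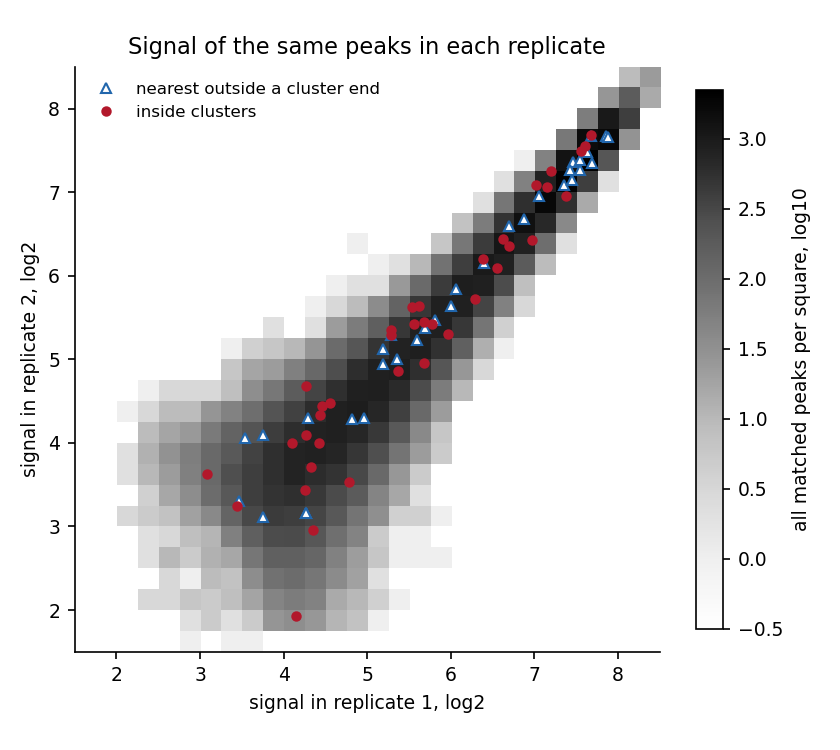
Signal in replicate 1 (x axis, log2) and replicate 2 (y axis, log2) of the 37 cluster peaks found in both (red circles) and of the nearest peaks outside the cluster ends (blue triangles), over all matched optimal peaks (grey squares, log10 count). The cluster peaks lie along the grey band, and the weak site near Vmn2r61 (17.7 and 3.82) has the lowest replicate 2 signal.

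Peaks became denser with distance from the clusters. From 0 to 50 kb outside the 36 ends there were 12.8 peaks per Mb (8.10 to 19.2), from 50 to 100 kb 17.8 (12.2 to 25.1), from 100 to 200 kb 24.2 (19.4 to 29.8) and from 200 to 500 kb 30.6 (27.2 to 34.4), against 3.27 inside. The first 50 kb thus had more peaks per Mb than the clusters and fewer than chromosomes 1 to 19, beyond the Poisson intervals. Per Mb of words found once, the 4 values were 16.8, 23.7, 31.04 and 37.5. The share of such words was 75.8, 75.01, 77.9 and 81.7% in the same order.

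**Figure D5:**
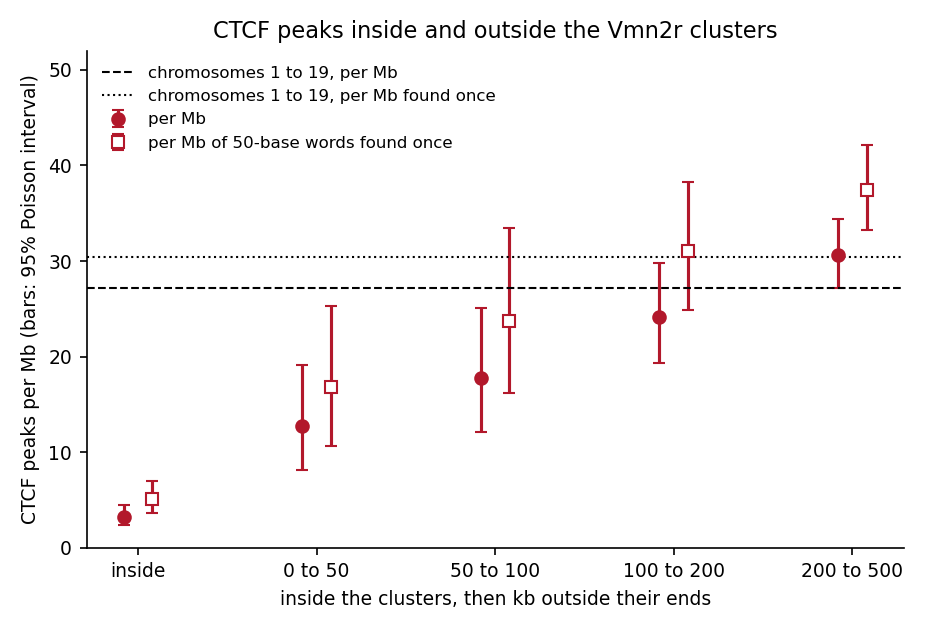
CTCF peaks per Mb (y axis) inside the Vmn2r clusters and in 4 ranges of distance outside their ends (x axis, kb), per Mb (filled circles) and per Mb of 50-base words found once (open squares), with 95% Poisson intervals and the values of chromosomes 1 to 19 as lines. Density rises from 3.27 per Mb inside to 30.6 at 200 to 500 kb.

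A peak bordered 14 of the 36 cluster ends within 50 kb (38.9%, Wilson 95% interval 24.8 to 55.1%), against 77.8% of the ends of protein-coding genes. Within 20 kb it was 5 ends and within 100 kb 23, against 59.1% and 86.6% of gene ends. The median distance from a cluster end to the next summit outside was 67.8 kb, from 1.26 kb at the Vmn2r8 end to 3255 kb at the Vmn2r37 end. The 36 ends share 34 different peaks, with the same peak nearest to the Vmn2r37, Vmn2r52 and Vmn2r53 ends. The peak nearest to the Vmn2r46 end, at Clcn4, lies inside Vmn2r29 to Vmn2r37. The median signal of the nearest peak over the 36 ends was 107.0, with a range of 21.3 to 438.0, and 21 lay above the median of all peaks.

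The closest border peaks were those of Vmn2r8 at 1.26 kb and of Vmn2r57 at 2.55 kb, where a peak at the start of AI987944 had a signal of 68.5 (36.5 in replicate 1 and 34.7 in replicate 2). The Vmn2r7 end had a weak peak at 8.11 kb with 21.3 (11.02 and 9.85), the Vmn2r83 end one at 9.45 kb with 75.2 (41.0 and 32.2), and the Vmn2r84 end one at 13.9 kb in an intron of Tespa1 with 221.6 (117.9 and 102.1). Strong border peaks within 50 kb lay at the Vmn2r27 end, 28.9 kb away with 374.3 (195.5 and 180.2), at the Vmn2r80 end, 32.03 kb away with 366.9 (206.1 and 163.4), at the Vmn2r1 end, 41.6 kb away with 341.3 (176.7 and 164.1), and at the Vmn2r29 end, 42.8 kb away with 303.9 (164.1 and 136.0). The other 5 ends within 50 kb were those of Vmn2r18 toward Rfc3 (39.0 kb, signal 113.8), Vmn2r87 (44.6 kb, 23.5), Vmn2r56 (45.7 kb, 45.5, no peak in replicate 2), Vmn2r19 (46.6 kb, 93.6) and Vmn2r17 (48.5 kb, 158.7).

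Between 50 and 100 kb lay the peaks beside the Vmn2r65 end (50.9 kb, signal 100.2), Vmn2r90 (57.8 kb, 354.6), Vmn2r88 (64.6 kb, 85.1), Vmn2r79 (65.8 kb, 314.6), Vmn2r77 (69.8 kb, 200.5), Vmn2r117 (71.97 kb, 27.3), both ends of Vmn2r118 (77.4 kb, 324.9, and 78.6 kb, 52.4) and Vmn2r53 (84.6 kb, 27.9). From 100 to 400 kb lay those beside Vmn2r111 (126.8 kb, 338.5), Vmn2r76 (139.6 kb, 48.3), both ends of Vmn2r120 (170.6 kb, 438.0, and 225.6 kb, 381.7), Vmn2r18 on its other side (191.3 kb, 33.8), Vmn2r89 (307.4 kb, 123.0), Vmn2r110 (349.0 kb, 42.8), Vmn2r63 (349.6 kb, 408.2) and Vmn2r28 on 1 side (351.3 kb, 256.6). Farther off were the other side of Vmn2r28 (633.3 kb, 433.4) and the ends that face the 5178 kb stretch: Vmn2r52 (2302 kb, 27.9), Vmn2r46 (2448 kb, 53.9) and Vmn2r37 (3255 kb, 27.9). Strong peaks thus stood at near and at far ends alike.

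CTCF motifs have a direction, and convergent pairs are known to favour loops. At 25 of the 36 ends the border peak had a motif. Its direction is that of the strand on which its G-rich core is read, as in the sequences printed above. The motif pointed into the cluster at 9 ends and away from it at 16. Within 50 kb, 6 pointed in, at Vmn2r1, Vmn2r8, Vmn2r18, Vmn2r27, Vmn2r83 and Vmn2r84, and 4 pointed away. Among the 9 clusters with a motif at both ends, 1 had both pointing in, Vmn2r65 to Vmn2r76, at 50.9 and 139.6 kb. The following sequences are shown because they carry that pair (GRCm38.p6, chr7:84884696-84884755 on the plus strand and chr7:86385940-86385999 on the minus strand, motif match in capitals).
Vmn2r65 end: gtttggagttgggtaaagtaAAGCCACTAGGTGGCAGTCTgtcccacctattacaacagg
Vmn2r76 end: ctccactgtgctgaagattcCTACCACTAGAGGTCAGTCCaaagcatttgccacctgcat

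Start peaks were also rare in the other chemosensory receptor families. Of 207 Vmn1r genes, the type 1 vomeronasal receptors, 1 had an optimal summit within 1 kb of the start (0.483%, Wilson 95% interval 0.0853 to 2.69%). Of 1087 olfactory receptor genes named Olfr, 7 had one (0.644%, 0.312 to 1.32%). The intervals of all 3 families overlap. Motif matches within 1 kb were present at 7.73% of Vmn1r and 5.61% of Olfr starts, where Vmn2r genes had none. The median distance to the nearest summit was 189973 bp for Vmn1r genes, next to 189879 bp for Vmn2r, and 86599 bp for Olfr genes. Clusters built in the same way held 2.27 peaks per Mb for Vmn1r (1.47 to 3.35), whose interval overlaps that of Vmn2r, and 8.14 for Olfr (7.16 to 9.22), whose interval lies above it. The median share of 50-base words found once at the starts was 98.7% for Olfr genes and 88.7% for both vomeronasal families. Differences between the families were not tested.

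Genes linked to the vomeronasal system were looked at from 3 lists, beside the 36.0% of all genes with a start peak. Not all of the listed genes are particular to type 2 receptors. Of 16 genes of vomeronasal signal transduction, 1 had a summit within 1 kb of its start, Gng8, a G protein gamma subunit, with a signal of 470.8 (255.1 in replicate 1 and 214.2 in replicate 2), and 7 had one within 5 kb, where 54.4% of all genes did. The nearest summit to Trpc2, the main transduction channel of vomeronasal neurons, lay 4426 bp away with a signal of 232.0. That to Gnao1, the G protein alpha subunit of the basal layer, lay 1943 bp away with 30.5. Of 10 genes for the H2-M class I molecules that accompany Vmn2r receptors and their partner, only that partner, B2m, had one, with a signal of 23.3 (11.97 and 9.95). None of the 9 H2-M genes did, and the nearest summits lay 8407 bp from H2-M10.5 to 128512 bp from H2-M11. Of 13 genes of vomeronasal neuron development, mostly transcription factors, 2 had a start peak. These were Bcl11b with 222.2 (119.0 and 102.7) and Ebf2 with 66.0 (43.2 and 20.3). Within 5 kb 8 of the 13 had a summit, against the same 54.4%. The Wilson 95% intervals of the 3 shares, 1.11 to 28.3%, 1.79 to 40.4% and 4.33 to 42.2%, overlap.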

How the data were processed

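The authors deposited 5 peak lists on mm10 in which every peak has a signal value on an unstated scale: 1 called on each replicate, 1 on both replicates together, and an optimal and a conservative list thresholded by IDR, per the deposited text notes. The software for alignment and peak calling, the read depth and the IDR cutoff were not given in the sources used here. Signals were compared within a list, except for the ratio of replicate 1 to replicate 2, which is set beside the same ratio over all peaks. The members and lists were chosen with earlier results of these data known.

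Gene starts were the 5' ends of GENCODE vM21 genes, and distances ran to summits. Sequence came from the GRCm38.p6 primary assembly, of the same build. Words of 36, 50 and 100 bases were counted on both strands. Of 2 motif matrices 20 bp wide, each was trained on 2000 strong peaks of 1 set of chromosomes and applied to the other set. Replicate peaks were matched within 100 bp. The counting code was tested on simulated data. Python 3.11.15, numpy 2.4.6, scipy 1.17.1 and numba 0.67.0 were used. With 1 group no test between conditions was possible, so counts stand beside those of all genes or chromosomes.

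Named were all clusters, the 10 strongest peaks in them, the nearest peak outside each end, members with a start peak in the list of both replicates together, and list genes with a start peak. Other genes, and the copied sites, were chosen after their values were seen. The alternatives were other peak lists, each replicate left out, other distances, motif thresholds and joining distances, and clusters without single genes or unsequenced bases.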

Additional observations from a re-analysis of the deposited data

How the results depend on the processing

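Of 41 alternatives, 30 left their result within the limits set (for a count, 1.5 times). The start count of 0 became 3 with the list of both replicates together (66.7% of all genes) and 2 within 5 kb (54.4%). Cluster density, 3.27 per Mb, was 1.68 with the stronger 50% of peaks (13.6 on chromosomes 1 to 19), 11.1 with the list of both replicates together (119.7), 1.85 with joining at 250 kb, and, added after seeing the data, 5.83 and 5.12 per Mb of words of 36 and 50 bases found once. It was 2.87 without replicate 1 and 3.03 without replicate 2, and lay below chromosomes 1 to 19 in every alternative run. The motif share was 29.3% at p 1e-06 (38.7% of all peaks) and 76.2% for the stronger 50% (79.5%). Ends with a peak numbered 5 within 20 kb and 23 within 100 kb. Values without a replicate use the strongest peaks of the remaining one, with no IDR step. No paired analysis was possible because there is 1 group. The cause of these shifts was not tested beyond what each setting itself changes. Unknown read depth and length limit every count of missing peaks. Repeated sequence is a further caution, and its effect on the counts was not tested. The share of 50-base words found once was lowest in Vmn2r29 to Vmn2r37 (13.4%) and Vmn2r46 to Vmn2r52 (28.1%).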
